A study of Homo sapiens with 23 samples.

Results

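FGFR1, FGFR2 and FGFR3 are 3 of the 9497 genes listed in the RNA-seq tables of thalamus organoids (ThOs) grown from the human embryonic stem cell line H1. They were chosen by name, as the receptor genes of the fibroblast growth factor (FGF) family that the tables hold, and because FGFR3 was higher in KO+cJun than in KO on day 25 and on day 30. All 3 were listed in every one of the 12 libraries, while the other receptor genes looked for, FGFR4 and FGFRL1, were not analysed here. The values of the KO+cJun and KO libraries took part in this choice, so every difference between them is given for the 3 receptors as a description, without a test.

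The libraries formed 6 groups of 2, with 3 organoids pooled in each library. WT stands for unmodified H1 cells, KO for H1 cells labelled as c-Jun knockout, made by CRISPR-Cas9, and KO+cJun for the knockout line to which c-JUN was given back from a doxycycline-inducible plasmid, by the study's account, the group that it calls OE. The study does not say whether WT and KO also received doxycycline. In KO+cJun against KO, the plasmid, any doxycycline and c-JUN itself cannot be told apart. Each genotype was sampled on day 25 and day 30 of the same protocol. By the study's account, an earlier patterning medium of all groups held BMP7 and an inhibitor of MEK, the kinase between FGF receptors and ERK. Before day 25 the organoids of this protocol were moved to a neural differentiation medium, whose listed contents do not include that inhibitor. The study describes more than 1 KO clone and the labels do not say which one gave these libraries, and they do not say whether the 2 libraries of a group were separate differentiations, so that errors and p-values measure only the spread between these libraries.

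FGF receptors are tyrosine kinases of the cell surface. An FGF, held by heparan sulphate chains, pairs the receptors, the adaptor FRS2 links them to RAS, and the signal runs through RAF and MEK to ERK. ERK in turn raises inhibitors of the route, such as the Sprouty proteins, SEF (IL17RD) and DUSP6. In the developing brain, FGFR1, FGFR2 and FGFR3 are made by the dividing cells that line the ventricles, and FGFR3 also marks the astrocyte lineage. c-JUN is a subunit of the transcription factor AP-1.

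The first bases to show are those before the annotated start of FGFR3, the receptor that differed most between the groups, and of FGFR2, which lay on the other side of WT from FGFR3 in the libraries labelled KO on day 25. Both were read from RefSeq (GRCh38.p14) and are written 5′ to 3′ on the gene's strand, with the letters of a GC box (GGGCGG or its complement CCGCCC) in capitals. The FGFR3 stretch lies at chr4:1793043-1793292 on the plus strand, the FGFR2 stretch at chr10:121598459-121598694 on the minus strand. FGFR1 is named only.
FGFR3: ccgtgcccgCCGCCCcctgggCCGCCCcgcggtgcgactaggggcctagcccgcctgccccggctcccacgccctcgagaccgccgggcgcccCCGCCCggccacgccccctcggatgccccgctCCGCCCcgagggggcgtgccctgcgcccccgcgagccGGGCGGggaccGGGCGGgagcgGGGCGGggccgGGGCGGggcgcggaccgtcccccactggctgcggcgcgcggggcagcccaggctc
FGFR2: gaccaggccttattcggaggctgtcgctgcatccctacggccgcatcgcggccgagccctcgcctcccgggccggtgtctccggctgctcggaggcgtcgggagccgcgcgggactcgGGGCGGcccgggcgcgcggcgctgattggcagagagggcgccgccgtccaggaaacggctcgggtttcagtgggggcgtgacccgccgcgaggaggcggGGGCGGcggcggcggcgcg

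The 250 bases of FGFR3 held 8 GC boxes and the 236 bases of FGFR2 held 2, and each stretch held 40 CpG sites. In windows of 300 bases around the annotated starts, GC content was 86.3% for FGFR3 and 79.3% for the first FGFR2 window, against a median of 58.3% over the first windows of 27305 genes. GC boxes were found in 45.0% of all 35116 windows. The AP-1 letters TGANTCA, searched on both strands, were found in 7.71% of these windows and the CRE letters TGACGTCA in 1.85%. Neither was found in the FGFR3 window or in any of the 5 FGFR2 windows, which says only that these letters are not there.

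The values are whole normalized numbers without a stated unit, and all 12 libraries shared the same lowest value (11), median (106) and highest value (9910), so that the depth behind a value is unknown. Genes low in any library are not in the tables, and a gene-level value does not separate the receptor isoforms. JUN, the targeted gene, was not lower in the libraries labelled KO. Its values were 353 and 196 on day 25 and 222 and 248 on day 30 in KO, 139, 153, 128 and 162 in WT, and 224, 212, 362 and 202 in KO+cJun. JUN thus goes against its label, by a log2 difference of 0.77 (SE 0.229, adjusted p = 0.197, limma) between KO and WT and of -0.03 (SE 0.229) between KO+cJun and KO. The place of the edit is not given in the sources used here, and RNA levels do not measure the protein. The study itself reported no c-JUN protein in the KO lines by western blot. It also reported no c-JUN mRNA by RT-qPCR in KO neural progenitors and cerebral organoids, and less accessible chromatin at c-JUN in KO ThOs. These tests of the study were not analysed here. Below, "KO" and "KO+cJun" therefore mean the libraries with these labels. The 2 replicates also differed more within KO than elsewhere, with Spearman's rho across genes of 0.821 on day 25 and 0.769 on day 30 against 0.936 to 0.959 in the other 4 groups. The labels name embryonic stem cells as the cell type, yet none of 5 pluripotency markers was listed. Of 12 thalamus markers 4 were listed (TCF7L2, LHX9, LEF1 and DLK1), of 12 roof plate markers 10 and of 10 choroid plexus markers 8.

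FGFR3 (ENSG00000068078, chromosome 4, 1793293 to 1808872, plus strand) had normalized values of 140 and 121 in WT, 58 and 35 in KO and 341 and 352 in KO+cJun on day 25. On day 30 the values were 78 and 74 in WT, 98 and 54 in KO and 356 and 241 in KO+cJun. All 4 KO+cJun libraries were above all 8 other libraries. Such a separation was found for 5.17% of all genes against KO and for 4.13% against WT, from which nothing is read here since it chose the gene. KO lay below WT on day 25, whereas on day 30 the 2 KO libraries fell on either side of the WT libraries.

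**Figure D1:**
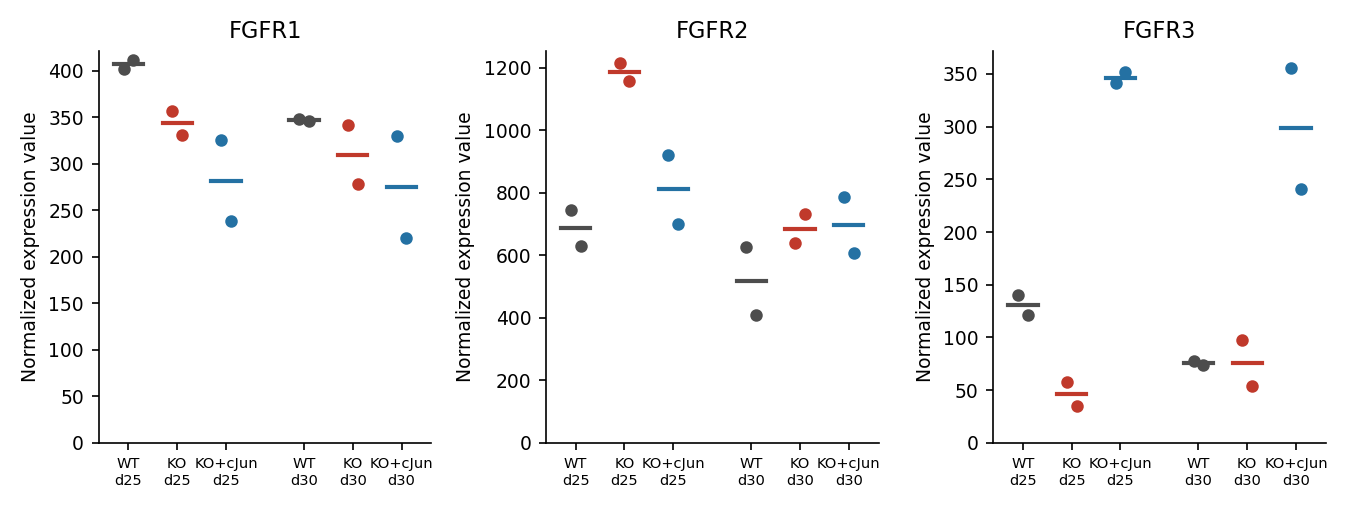
Normalized expression value (vertical axes, linear, from 0) of FGFR1, FGFR2 and FGFR3 in each of the 12 libraries (points) with the mean of each group of 2 (bars), by genotype on day 25 (d25) and day 30 (d30). FGFR3 is at 241 to 356 in KO+cJun and at 35 to 140 elsewhere, FGFR2 peaks at 1214 and 1157 in KO on day 25, and FGFR1 is highest in WT.

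The order of the FGFR3 means was KO+cJun day 25 (346.5 ± 7.78, SD, n = 2), KO+cJun day 30 (298.5 ± 81.3), WT day 25 (130.5 ± 13.4), WT day 30 (76.0 ± 2.83), KO day 30 (76.0 ± 31.1) and KO day 25 (46.5 ± 16.3). The first pair overlapped, and WT day 30, KO day 30 and KO day 25 each overlapped with the next in order. WT day 25 stood apart from both of its neighbours.

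On the log2 scale of value + 1, FGFR3 was higher in KO+cJun than in KO by 2.91 (SE 0.340) on day 25, a 7.54-fold difference, and by 1.99 (SE 0.340) on day 30, a 3.98-fold difference. Over both days the difference was 2.45 (SE 0.240), or 5.48-fold. The difference on day 30 minus that on day 25 was -0.92 (SE 0.481). Against WT, FGFR3 in KO+cJun was higher by 1.41 on day 25 and 1.93 on day 30, or 1.67 (SE 0.240) over both days, which is 3.18-fold. KO was 1.51 log2 units below WT on day 25 and 0.06 below it on day 30 (SE 0.340 each), and without KO day 30 replicate 2 it was 0.36 above WT on day 30. The comparisons of KO+cJun with KO and of KO with WT share the 4 KO libraries, so a low KO library moves both.

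FGFR2 (ENSG00000066468, chromosome 10, 121478332 to 121598458, minus strand) had normalized values of 746 and 628 in WT, 1214 and 1157 in KO and 922 and 700 in KO+cJun on day 25. On day 30 they were 627 and 408 in WT, 638 and 732 in KO and 786 and 607 in KO+cJun. The 2 KO libraries of day 25 were above all 10 others. The next 4 groups in the order of means overlapped with their neighbours, and WT day 30 lay just below KO day 30 (627 against 638). By mean, KO day 25 (1185.5 ± 40.3, SD, n = 2) was followed by KO+cJun day 25 (811.0 ± 157), KO+cJun day 30 (696.5 ± 127), WT day 25 (687.0 ± 83.4), KO day 30 (685.0 ± 66.5) and WT day 30 (517.5 ± 155).

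Next to WT, FGFR2 in KO was higher by 0.79 log2 units on day 25 (SE 0.232, adjusted p = 0.206, limma), by 0.43 on day 30 (SE 0.232, adjusted p = 0.643) and by 0.61 over both days (SE 0.164, adjusted p = 0.188, 95% interval 0.25 to 0.97). None of these passed the threshold of an adjusted p under 0.05 and a 2-fold difference, which 2 of the 9497 genes (0.0211%) passed in KO against WT over both days, 1 on day 25 (0.0105%) and 0 on day 30. Without adjustment of the p, 279 genes passed on day 30. An exact two-sided permutation test of 4 KO against 4 WT libraries gave p = 0.143, where 0.0286 is the smallest p it can give. That test takes the days together, although both KO libraries were above both WT libraries within each day. With labels permuted within each day, a test added after the values were seen, p was 0.0556, the smallest that its 36 arrangements allow, so that it cannot reach 0.05. KO+cJun was 0.34 above WT over both days (SE 0.164, adjusted p = 0.636, limma). Between KO+cJun and KO, FGFR2 differed by -0.56 on day 25 and 0.02 on day 30.

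FGFR1 (ENSG00000077782, chromosome 8, 38400215 to 38468834, minus strand) had normalized values of 402 and 412 in WT, 357 and 331 in KO and 326 and 238 in KO+cJun on day 25. On day 30 they were 348 and 346 in WT, 342 and 278 in KO and 330 and 220 in KO+cJun. WT was the highest genotype on each day, and all 4 KO+cJun libraries were below all 4 WT libraries. The means ran from 407.0 ± 7.07 (SD, n = 2) in WT day 25 and 347.0 ± 1.41 in WT day 30 through 344.0 ± 18.4 and 310.0 ± 45.3 in KO on days 25 and 30 to 282.0 ± 62.2 and 275.0 ± 77.8 in KO+cJun. Only WT day 25 was separate from its neighbour in that order.

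FGFR1 in KO+cJun was 0.45 log2 units below WT over both days (SE 0.168, 95% interval -0.82 to -0.09). The adjusted p was 0.486 (limma), and the exact permutation test gave p = 0.0286, the smallest possible, or 0.0952 after adjustment over the 10 permutation tests of the receptors and their ratio. Permuted within days, p was 0.0556, again the smallest possible. A lower value in each of the 4 KO+cJun libraries than in each WT library was found for 412 genes, 4.34% of all. KO was 0.21 below WT (SE 0.168, adjusted p = 0.560, limma, and exact permutation p = 0.114, or 0.0556 within days). Between KO+cJun and KO the difference was -0.25 (SE 0.168).

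Between days, no receptor passed the threshold. Day 30 against day 25 over the 3 genotypes, FGFR2 differed by -0.48 log2 units (SE 0.134, adjusted p = 0.256, limma), FGFR1 by -0.14 (SE 0.137, adjusted p = 0.729) and FGFR3 by -0.11 (SE 0.196, adjusted p = 0.866). The exact permutation tests of 6 against 6 libraries gave p = 0.0476 for FGFR2, 0.119 after adjustment over the 10 tests, with p = 0.377 for FGFR1 and 0.874 for FGFR3. Permuted within genotypes, p was 0.0278 for FGFR2, or 0.0794 after adjustment over the 10 tests of this kind. FGFR2 was lower on day 30 in each genotype by the means, by -0.44 in WT, -0.79 in KO and -0.22 in KO+cJun. For FGFR3 the day differences were -0.77 in WT, 0.68 in KO and -0.24 in KO+cJun.

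**Figure D2:**
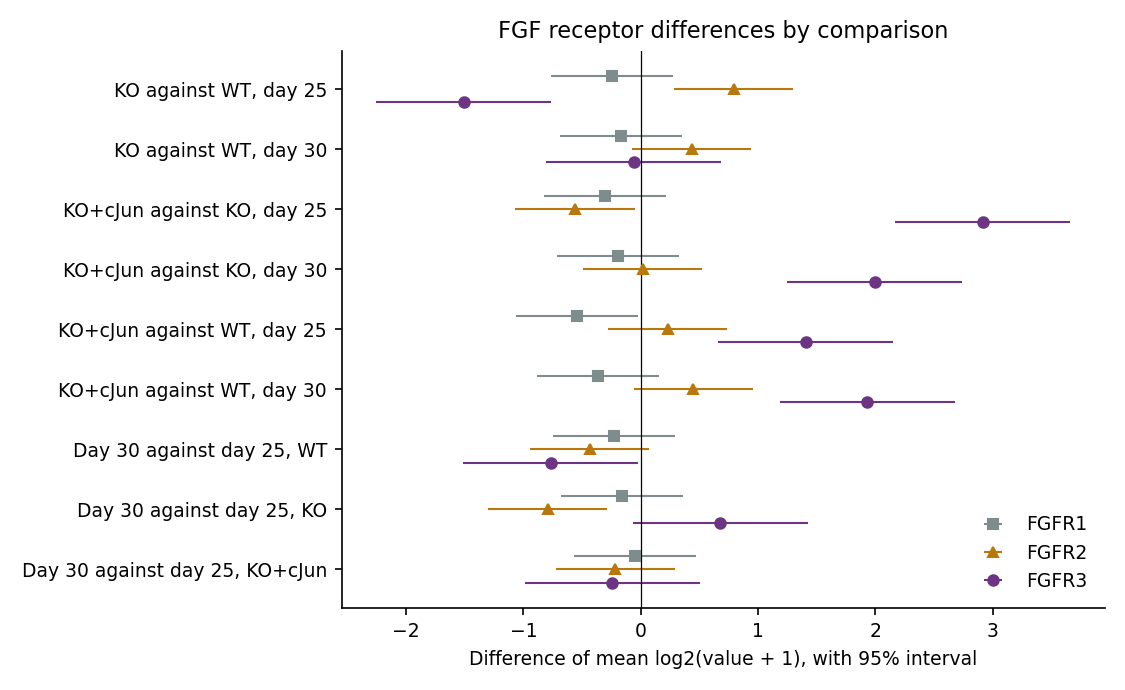
Differences of mean log2(value + 1) (horizontal axis) for FGFR1 (squares), FGFR2 (triangles) and FGFR3 (circles) in 9 comparisons of 2 libraries with 2, with the 95% interval of the limma fit as bars. The KO and KO+cJun values took part in the choice of the genes. The bars of KO+cJun against KO, and those of FGFR3 in any comparison of genotypes, are therefore a description and not a test. FGFR3 lies at 2.91 and 1.99 in KO+cJun against KO, where FGFR2 lies at -0.56 and 0.02 and FGFR1 at -0.30 and -0.19.

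The 3 receptors did not move together over the 12 libraries. Pearson's r was 0.09 between FGFR1 and FGFR2, -0.35 between FGFR1 and FGFR3 and -0.16 between FGFR2 and FGFR3, as a description of libraries that share their group. The balance of FGFR2 to FGFR1 within a library, in which any scaling by gene length cancels between groups, was lower in WT than in both other genotypes. The log2 ratio was 0.89, 0.61, 0.85 and 0.24 in the WT libraries (day 25, then day 30), 1.76, 1.80, 0.90 and 1.39 in KO and 1.497, 1.55, 1.25 and 1.46 in KO+cJun. No library of WT reached the lowest one of KO or KO+cJun, although KO day 30 replicate 1 was only just above it (0.898 against 0.890). The ratio was higher than in WT by 0.82 in KO and by 0.79 in KO+cJun, each with p = 0.0286 in an exact permutation test of 4 against 4 libraries, and 0.0952 after adjustment over the 10 tests. Exact permutation within days gave p = 0.0556 for each, the smallest possible. Both comparisons use the same WT libraries, so their results are not independent of each other. The log2 ratio of FGFR3 to FGFR1 was between -3.21 and -1.52 in all 8 WT and KO libraries and between 0.06 and 0.56 in the 4 KO+cJun libraries.

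The other genes of the FGF route were taken from lists by role, with 69 of 106 genes listed in the tables. In KO+cJun against KO over both days, 2 of the 69 were called higher and 3 lower at an adjusted p under 0.05 and 2-fold, 5 of 69 in all, where 2.22% of all genes were called. In KO against WT none of the 69 was called, though 6 passed without adjustment of the p, as did 2.08% of all genes. In KO+cJun against WT 2 were called lower and 0 higher, beside 0.158% of all genes. No gene of the tables was called between days in any genotype.

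Of the 18 FGF ligands looked for, only FGF2 and FGF7 were listed, both at low values. FGF2, a ligand of several receptors, was at 44 to 52 in WT, 28 to 82 in KO and 29 to 54 in KO+cJun. FGF7, which acts on an epithelial form of FGFR2, was at 22 to 34, 30 to 86 and 27 to 40. The groups overlapped for both. Among the FGF homologous factors, which stay in the cell and bind sodium channels and not FGF receptors, FGF12 was at 121, 123, 129 and 93 in WT, 140, 281, 80 and 150 in KO and 22, 32, 66 and 22 in KO+cJun (day 25, then day 30). It was lower in KO+cJun than in KO by a log2 difference of -2.17 (SE 0.362, adjusted p = 0.0158, limma), and all 4 KO+cJun libraries were below all others. Counted against 1 genotype at a time, a separation in this direction was found for 4.51% of all genes against KO and for 4.34% against WT. The share against both at once was not counted. The call was lost without KO+cJun day 25 replicate 1 (adjusted p = 0.0578) or day 30 replicate 2 (adjusted p = 0.0610).

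The heparan sulphate proteoglycans and their enzymes held 4 of the 5 called genes. GPC4, a glypican that carries heparan sulphate, was at 172, 146, 92 and 87 in WT, 38, 51, 99 and 67 in KO and 359, 227, 104 and 153 in KO+cJun. It rose from KO to KO+cJun by 1.65 (SE 0.228, adjusted p = 0.00845, limma) over both days and by 2.67 on day 25 (adjusted p = 0.0180, when 0.274% of all genes were called), and on day 30 the closest libraries were 104 and 99. The call on day 25 was lost without WT day 25 replicate 2, KO+cJun day 25 replicate 1 or either WT library of day 30. HS6ST1, which adds sulphate to heparan chains, was at 249, 328, 265 and 282 in WT, 149, 166, 276 and 206 in KO and 445, 442, 536 and 397 in KO+cJun. It rose by 1.22 (SE 0.164, adjusted p = 0.00745, limma), and it was higher in every KO+cJun library than in every other one. Counted against 1 genotype at a time, a separation in this direction was found for 5.17% of all genes against KO and for 4.13% against WT. The share against both at once was not counted. HS6ST1 did not pass the threshold against WT (0.69, adjusted p = 0.176).

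In the same comparison of KO+cJun with KO, the glypican GPC6 fell by 1.42 on the log2 scale (SE 0.323, adjusted p = 0.0418, limma) and the syndecan SDC2 fell by 1.01 (SE 0.187, adjusted p = 0.0212). GPC6 was at 62, 110, 189 and 79 in KO+cJun and 282, 346, 322 and 172 in KO, so 1 library of each overlapped. Its call was lost without KO+cJun day 30 replicate 2 (adjusted p = 0.176) and without any one of 9 other libraries, and it was lost with the replicate block (adjusted p = 0.0505). SDC2 was at 140 to 194 in KO+cJun, 273 to 394 in KO and 268 to 344 in WT, and its call was lost without any one of KO+cJun day 25 replicates 1 and 2, KO+cJun day 30 replicate 2 (adjusted p = 0.117), KO day 30 replicate 2 and KO day 25 replicate 2. Over the 20 measured genes of this list, which also holds other co-receptors such as NCAM1 and CDH2, the median difference was 0.22, beside 0.01 over all genes. Of these genes 11 were above 0 and 9 below, and the median was 0.20 on day 25 and -0.05 on day 30. SDC3 was lower by 0.31, with an adjusted p of 0.184.

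Downstream of the receptors, no adaptor and no member of the RAS to ERK cascade was called in any comparison of genotypes. All 14 cascade genes looked for were listed, and their median differences were -0.07 in KO+cJun against KO and 0.05 in KO against WT. BRAF, the kinase above MEK, was at 157 to 184 in KO+cJun and 112 to 156 in KO, a difference of 0.27 (SE 0.173, adjusted p = 0.376, limma). Among the 14 adaptors, PIK3R1, a regulatory subunit of PI3 kinase, differed by -0.90 (adjusted p = 0.0874) and SHC1, which links receptors to GRB2, by -0.51 (adjusted p = 0.171). The libraries of the 2 groups did not overlap for any of these 3 genes, as for 5.17% of all genes in the higher direction and 4.51% in the lower one.

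Most genes grouped as feedback inhibitors had lower values than WT in both other genotypes, and 2 passed the threshold in KO+cJun. The list also holds NF1, RASA1 and RASA2, whose part in feedback was not tested. Against WT, 12 of 13 had a difference below 0 in KO+cJun (median -0.71, all genes 0.00) and 12 of 13 in KO (median -0.29, all genes -0.02). Both comparisons share the WT libraries, so a high WT library moves both. By day, 13 of 13 were below 0 in KO on day 25 and 9 of 13 on day 30. Lower values were not particular to this list. Of the 20 co-receptor and heparan sulphate genes, 16 were below WT in KO (median -0.25) and 15 in KO+cJun (median -0.30). IL17RD, which dampens FGF receptors at the membrane, was at 1258, 1157, 708 and 788 in WT, 579, 710, 354 and 345 in KO and 700, 400, 280 and 241 in KO+cJun. In KO+cJun it fell by 1.35 on the log2 scale from WT (SE 0.170, adjusted p = 0.0139, limma). SPRY1, an inhibitor between receptor and RAS, was at 244, 322, 184 and 229 in WT, 76, 96, 98 and 52 in KO and 148, 82, 50 and 47 in KO+cJun, and fell by 1.70 (SE 0.256, adjusted p = 0.0344), a call lost with the replicate number as a block (adjusted p = 0.0506). Without the intensity trend of the fit neither was called (adjusted p = 0.0747 for each). The KO differences from WT were -1.002 (adjusted p = 0.0846) and -1.61 (adjusted p = 0.0738), so the genes were not called in KO, whereas without KO day 30 replicate 1 both were (adjusted p = 0.0120 for IL17RD and 0.00313 for SPRY1). Both calls in KO+cJun were lost when any one of the WT libraries was left out, and without KO+cJun day 30 replicate 2, with an adjusted p of 0.0987 for IL17RD and 0.204 for SPRY1. That of SPRY1 was also lost without KO+cJun day 25 replicate 2 (adjusted p = 0.146) or day 30 replicate 1 (adjusted p = 0.0781).

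In KO+cJun, 6 of the 13 inhibitors (46.2%) were below WT in every library, beside 4.34% of all genes, and 14 of the 69 genes of the route (20.3%). Chosen after their values were seen, the other 4 inhibitors were SPRY2, SPRY4, SPRED1 and DUSP4. In KO 4 of 13 (30.8%) were below WT in every library, beside 3.14% of all genes. Between KO+cJun and KO the list had no called gene and a median of -0.09, and SPRY1 itself differed by -0.09 (SE 0.256, adjusted p = 0.860, limma). Of 12 genes grouped as transcriptional targets, ETV1, CCND1, ERF and ELK4 were listed, and none was called. Whether each of these 4 is a target of FGF signalling was not tested. The ETS factor ELK4 was at 130, 192, 120 and 150 in KO+cJun and 28, 82, 98 and 102 in KO, a difference of 1.06 (SE 0.324, adjusted p = 0.0953).

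**Figure D3:**
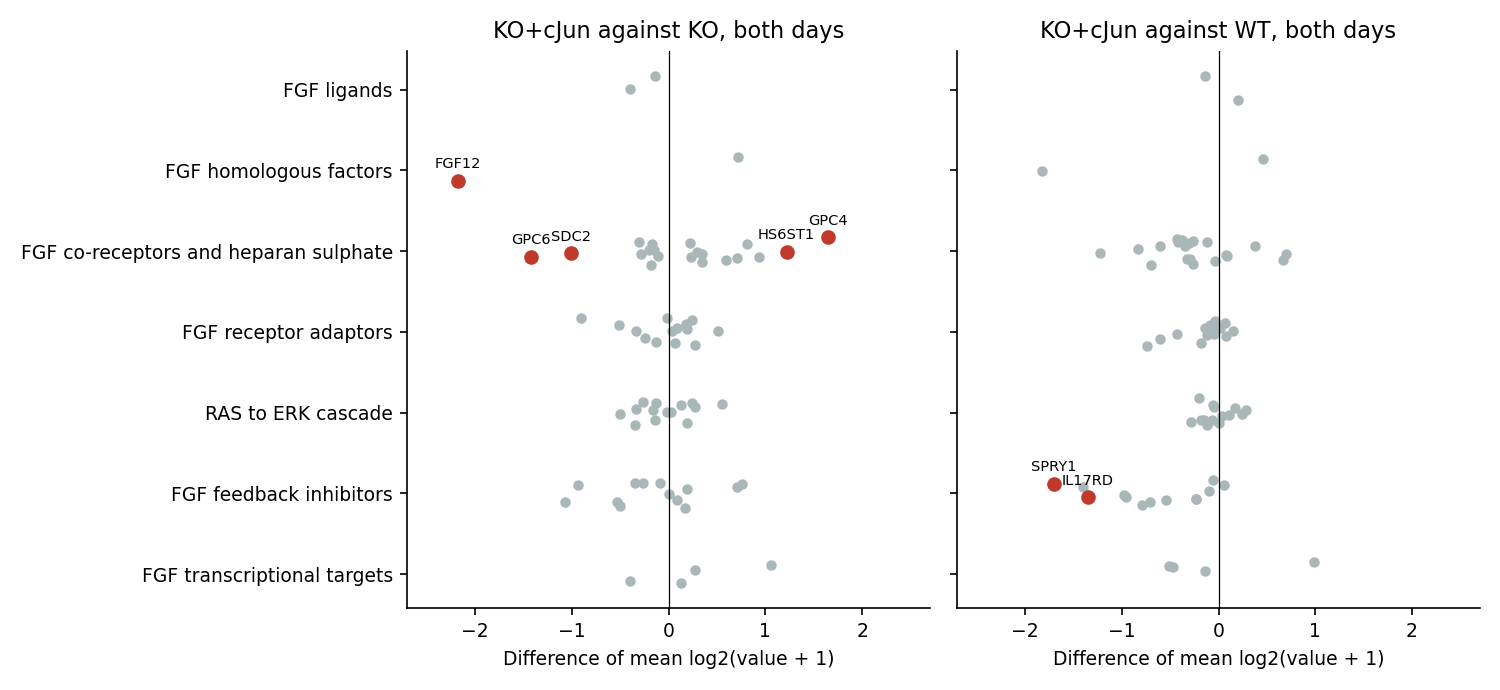
Each point is 1 of the 69 genes of the FGF route by role, with its difference of mean log2(value + 1) over both days for KO+cJun against KO (left) and against WT (right). Named points in red passed an adjusted p under 0.05 and a 2-fold difference, 5 on the left and 2 on the right, and vertical scatter within a role only separates the points.

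The genes whose pattern over the 12 libraries was most like that of each receptor were taken by Pearson's r of log2(value + 1). For FGFR3 they were NCAN (r = 0.945), a brain proteoglycan, TMPO (0.939), a protein of the nuclear lamina, HS6ST1 (0.927), LRIG1 (0.921), an inhibitor of growth factor receptors, and DLGAP5 (0.917), a mitotic spindle protein. CD320, a receptor for vitamin B12 uptake, ran most opposite (-0.940), followed by ARFGEF3 (-0.932) and EML3 (-0.911). NCAN was at 206 to 244 in KO+cJun against 90 to 182 elsewhere, and LRIG1 at 154 to 244 against 54 to 130. Both were picked for their likeness to FGFR3, so these ranges are no support for its pattern.

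For FGFR2 they were RASAL2 (r = 0.961), which switches RAS off, PHKA2 (0.886), ABCA10 (0.883), LRRN2 (0.863) and ARNT (0.856), with UBE2F (-0.906), MAP2K1 (-0.893) and RNF41 (-0.882) most opposite. RASAL2 was at 306 and 310 in KO on day 25 and at 172 to 254 in the other 10 libraries. MAP2K1, which encodes the MEK1 kinase, was at 60 and 78 in KO on day 25 and at 86 to 127 elsewhere. For FGFR1 they were GAREM1 (0.906), an adaptor of receptor tyrosine kinases, PARD3B (0.900), GALNT12 (0.878), UBA1 (0.863) and PTPN14 (0.863), with NUDT11 (-0.830), POU2F2 (-0.830) and PER1 (-0.817) opposite. Libraries of a group share their conditions, and the lists changed with the measure. By Spearman's rho, 0, 1 and 0 of the 5 genes stayed for FGFR1, FGFR2 and FGFR3. Without the 4 KO libraries, 1, 2 and 0 stayed.

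The genes beside the receptors were read for whether a stretch of chromosome moved together. TACC3, a spindle protein encoded next to FGFR3 on chromosome 4, was at 180, 174, 173 and 154 in KO+cJun, 78, 105, 117 and 58 in KO and 162, 152, 114 and 170 in WT. Its difference between KO+cJun and KO was 0.97 (SE 0.238, adjusted p = 0.0504, limma), and against WT it was 0.20 (adjusted p = 0.931). On the other side of FGFR3, LETM1 differed by -0.08, and NSD2 by 0.26. Beside FGFR2, ATE1, NSMCE4A, TACC2 and WDR11 differed by -0.52 to 0.51, and beside FGFR1, TACC1 differed by -0.65 (SE 0.218, adjusted p = 0.130). None of these 13 neighbours was called in a comparison of genotypes.

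Of the cell state lists, the cell cycle sums were, like FGFR3, highest in all 4 KO+cJun libraries. In bulk organoids, fewer cells of a type and less RNA per cell cannot be told apart. The summed value of 14 of 15 cell cycle genes was 3709 to 4079 in KO+cJun, 2505 to 3495 in WT and 2014 to 2828 in KO. MKI67, CCNA2 and BUB1 were called higher in KO+cJun than in KO, 3 of the 14, beside 1.05% of all genes. Of 15 radial glia and progenitor markers 11 were listed, with sums of 7010 to 9204 in KO+cJun, 6987 to 14204 in WT and 4095 to 7954 in KO. SOX2 was the 1 of the 11 called higher in KO+cJun than in KO, and TNC the 1 called lower in KO+cJun than in WT, beside 0.116% of all genes. The sums of 12 neuron markers overlapped (8514 to 12329 in KO+cJun, 7463 to 10892 in WT and 9014 to 11792 in KO). Of 9 markers of astrocytes and oligodendrocyte precursors only PDGFRA was listed, at 40 to 154, and GFAP, AQP4 and the other 6 were not analysed here.

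The roof plate list ran the opposite way. Summed over its 10 measured genes, KO was at 4392 to 12046, above all WT (2867 to 3640) and KO+cJun (2748 to 3752) libraries, with 3 of 10 called lower and 1 higher in KO+cJun than in KO, beside 1.17% and 1.05% of all genes. The sums of 8 choroid plexus genes overlapped between all genotypes (1994 to 5485), and 3 of the 8 (CLDN1, KRT18 and KRT8) were called lower in KO+cJun than in KO, with a median of -0.34 over the list. COL1A2 and PDGFRB, 2 of 9 mesenchyme markers, summed to 128 to 318 in KO+cJun, 225 to 382 in WT and 261 to 980 in KO. CLDN5, the 1 endothelial marker of 6 that was listed, was at 108 to 238 in KO+cJun, 64 to 98 in WT and 51 to 190 in KO. The part of these cell states in the receptor values was not tested.

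**Figure D4:**
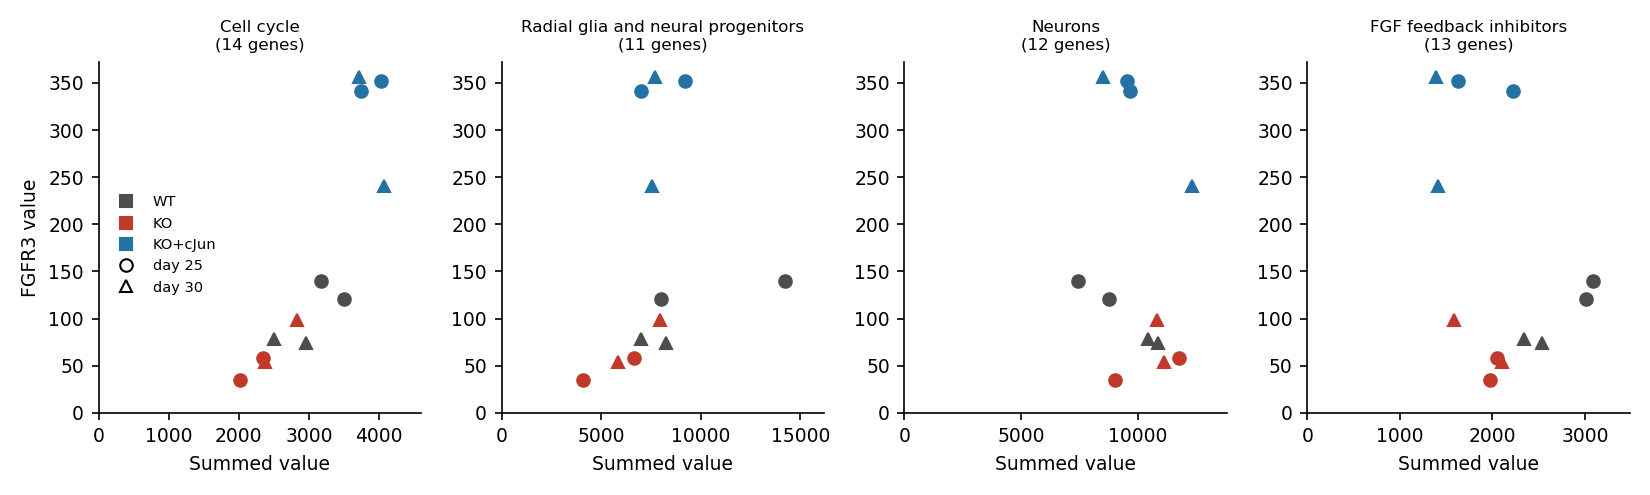
Normalized value of FGFR3 (vertical axis) against the summed value of the listed genes of 4 lists (horizontal axes, linear, from 0) in the 12 libraries, coloured by genotype, with circles for day 25 and triangles for day 30. Cell cycle sums are 3709 to 4079 in KO+cJun and at most 3495 elsewhere, whereas the summed feedback inhibitors are highest in WT (2345 to 3084). IL17RD alone is at 708 to 1258 in WT, 345 to 710 in KO and 241 to 700 in KO+cJun. The sum of the 13 inhibitors therefore leans on this gene and does not speak for each of them.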

How the data were processed

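Ribosomal-RNA-depleted, strand-marking libraries were sequenced in paired ends from 12 ThO samples. The authors deposited 1 table per library with a whole-number normalized score per gene. How the score was normalized is not given in the sources used here, and the processing notes name RSEM, Bowtie2 and hg19 without a role, while the positions in the tables are those of GRCh38. Identical lowest, median and highest scores in all libraries are what quantile normalization leaves. ATAC-seq and CUT&Tag samples were not analysed here.

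Scores were analysed as log2(score + 1) with limma 3.58.1 (R 4.3.3), with 6 group means, an intensity trend, and Benjamini-Hochberg adjustment over all 9497 genes of a comparison. Genes were called at an adjusted p under 0.05 and at least 2-fold. Exact permutation tests were two-sided (scipy 1.17.1), and permutation within days or genotypes was added after the values were seen. The fit was tested on simulated data. Members, lists and comparisons were chosen with earlier results of these data known. Genes named were the receptors, JUN, called pathway genes, up to 2 non-overlapping genes per pathway list, the 5 most alike and 3 most opposite genes per receptor, and neighbours. Alternatives were other pseudocounts (0.1 and 5), filters, scalings, weights and designs, a replicate block, and each library left out. Of the gene symbols, 9386 matched RefSeq.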

Additional observations from a re-analysis of the deposited data

How the results depend on the processing

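Over both days together, FGFR3 differences between genotypes kept their direction in every alternative run, with a range over the libraries left out in turn of 2.24 to 2.67 log2 units in KO+cJun against KO, 1.53 to 1.81 in KO+cJun against WT and -0.997 to -0.57 in KO against WT. FGFR3 was chosen on KO+cJun against KO, so its kept direction there was set by the choice. Its comparisons with WT use the same KO and KO+cJun libraries, so none of these FGFR3 ranges is support. FGFR1 and FGFR2 also kept their direction in these 3 comparisons, with 0.46 to 0.77 for FGFR2 and -0.28 to -0.13 for FGFR1 in KO against WT. No alternative called FGFR1 or FGFR2. The lowest adjusted p of FGFR2 in KO against WT was 0.0392, without KO day 30 replicate 1, at under 2-fold.

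Small differences turned their direction when 1 library was left out. On day 30, FGFR3 in KO against WT ran from -0.48 to 0.36, the latter without KO day 30 replicate 2, and in KO+cJun against KO FGFR1 ran from -0.49 to 0.098 and FGFR2 from -0.17 to 0.20. FGFR3 between days over genotypes was between -0.25 and 0.03, above 0 without KO day 25 replicate 1 (0.00841) or without the second KO library of day 30 (0.031). In KO+cJun alone, day 30 against day 25 ran from -0.52 to 0.039 for FGFR3 and from -0.34 to 0.24 for FGFR1 (0.18 without KO+cJun day 25 replicate 1). Changes of a genotype effect between days ran from -0.076 to 0.22 for FGFR1 in KO against WT, from -0.11 to 0.47 for FGFR1 in KO+cJun against WT (-0.044 without KO+cJun day 25 replicate 2) and from -0.091 to 0.53 for FGFR2 in KO+cJun against WT, and that of FGFR1 in KO+cJun against KO from -0.18 to 0.40. SPRY1 in KO+cJun against KO ran from -0.32 to 0.13 (0.12 without KO+cJun day 25 replicate 2).

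The number of called genes of the FGF route was less stable. In KO+cJun against KO, 5 over both days became 2 with library weights, 0 in a fit of only the libraries compared and 2 to 10 with 1 library left out, and 2 on day 25 became 1 with the replicate block, 0 with weights, 1 without the trend, 0 in a fit of only the libraries compared, 0 to 5 with 1 library left out and 9 by the unadjusted p. On day 30, 0 became 4 by the unadjusted p and 0 to 13 with 1 library left out. In KO against WT, 0 became 1 in a fit of only the libraries compared, 6 by the unadjusted p and 0 to 7 with 1 library left out. In KO+cJun against WT, 2 became 5 with weights, 0 without the trend, 5 in a fit of only the libraries compared, 5 by the unadjusted p and 0 to 2 with 1 library left out. KO day 30 replicate 1 gave the highest counts (10, 7 and 13) and KO+cJun day 25 replicate 1 and day 30 replicate 2 the lowest over both days (2 each), followed by KO day 30 replicate 2 and KO+cJun day 25 replicate 2 (3 each). The cause was not tested.

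The replicate differences of the groups had correlations of -0.21 to 0.26 with each other, and 1 of 15 was above 0.1. Within a day they ran from -0.07 (KO with KO+cJun, day 30) to 0.26 (WT with KO+cJun, day 30). These correlations do not settle whether same-numbered libraries were a pair. With the replicate block, 4 genes of the route were called in KO+cJun against KO over both days, 1 in KO+cJun against WT and 0 in KO against WT. FGFR2 in KO against WT stayed at 0.61 (adjusted p = 0.188, limma).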
